A study of Caenorhabditis elegans with 6 samples.

Results

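The genes described here are 38 nuclear-encoded genes of the mitochondrial respiratory chain of Caenorhabditis elegans. They were taken as a list of gene symbols, and each was found by its WormBase identifier among the 46756 genes of the count table. By complex, 9 belong to complex I, 4 to complex II, 7 to complex III, 2 encode cytochrome c, 7 belong to complex IV and 9 to complex V. Of the 38, 37 had at least 10 counts summed over the libraries and were tested together with all other genes that did (18428 genes). The cytochrome c gene cyc-2.2 was the only one under that minimum.

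RNA was sequenced from whole hermaphrodites of the strain ACH93 on adulthood day 2. In the 10-worm group the animals shared a plate as a population of 10, and in the solitary group each plate held 1 animal. Each group had 3 libraries, labelled as biological repeats. Both groups carried the same transgenes in an N2 wild-type background, wacIs1[myo-3p::rpn-5::wrmScarlet] and wacIs14[myo-3p::tomm-20::mGFP], both with unc-119(+). The myo-3 promoter drives both in the body wall muscles, so those muscles held a tagged proteasome subunit and mitochondria labelled with a piece of the outer membrane protein TOMM-20 in all libraries. All animals were kept at 20 °C with E. coli OP50 as food. The libraries came from polyA-selected RNA of whole animals. The study was about exophers, large vesicles that muscles release, and the comparison asked which transcripts differ when hermaphrodites grow with others of their kind.

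The respiratory chain passes electrons through a row of protein complexes in the mitochondrial inner membrane. Complex I takes them from NADH and complex II from succinate, ubiquinone carries them to complex III, cytochrome c carries them on to complex IV, and complex IV hands them to oxygen. The proton gradient built on the way drives complex V, the ATP synthase. Complexes I, III, IV and V are mosaics of subunits encoded in the nucleus and subunits encoded by mitochondrial DNA, whereas complex II is encoded by the nucleus alone. In C. elegans several of these genes are known from mutants that alter lifespan or oxygen sensitivity.

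Total counts were between 57077055 and 62794403 in the 10-worm libraries and between 55176436 and 62269301 in the solitary libraries. The 37 tested genes had at least 1991 counts in every library, so counting error was small for them. Together the 38 genes took 0.833 to 0.848% of all counts in the 10-worm libraries and 0.872 to 0.910% in the solitary libraries. Marker genes of intestine, body wall muscle, germline and neurons were present in all libraries, as a whole-animal sample requires. Of 34 markers, all but the sperm marker spe-11 (4 counts in total) were tested. An adjusted p under 0.05 in edgeR was reached by 0 of them, beside 0.239% of all tested genes. The summed level of the germline markers was 3318 to 3468 TPM (counts per exonic length, scaled to the same total in every library) in the 10-worm group and 3176 to 3257 TPM in the solitary group, and that of the neuron markers was 474.6 to 515 TPM in the 10-worm group and 466.1 to 473.7 TPM in the solitary group. These sums did not overlap between the groups, and their part in the results below was not tested. On the TPM scale the median gene was itself 0.08 higher in the 10-worm group as a log2 difference (10471 genes that averaged 100 or more counts and had no 0). With the library scaling used for the tests below, the 7 germline markers had log2 fold changes from -0.09 to 0.06. Those of the 5 neuron markers ran from -0.01 to 0.19. The sums of the other lists overlapped. Those of the muscle markers were 619 to 641.1 TPM in the 10-worm group and 612.1 to 649.4 TPM in the solitary group, and those of the intestine markers were 14720 to 17270 TPM in the 10-worm group and 14110 to 15840 TPM in the solitary group. Sperm markers summed to at most 0.900 TPM in the 10-worm group and 1.02 TPM in the solitary group, and embryo markers to at most 12.6 TPM in the 10-worm group and 10.2 TPM in the solitary group. In such bulk samples fewer cells of a type and less RNA per cell cannot be told apart.

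Levels between genes were compared per length, as TPM averaged over the 6 libraries. The respiratory chain genes were among the well expressed genes of the animal, and 23 of the 37 ranked within the first 1000 of 18345 tested genes with a known length. The highest was atp-2, the catalytic beta subunit of the ATP synthase, at 979 TPM. It was followed by cyc-2.1, one of the cytochrome c genes, at 841 TPM and by atp-1, the alpha subunit, at 809 TPM. The lowest tested gene was ucr-2.2, which encodes a core protein 2 of complex III, at 40.0 TPM, so that atp-2 stood 24.5-fold above it. The median gene of complex IV had 407 TPM and that of complex V 395 TPM, while the medians of complexes I, II and III were 170, 166 and 197 TPM. Within complex II, 3 subunits lay close together, with 205 TPM for the iron-sulfur subunit sdhb-1, 173 TPM for mev-1 and 159 TPM for sdhd-1, while the flavoprotein sdha-1 had 52.3 TPM.

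**Figure D1:**
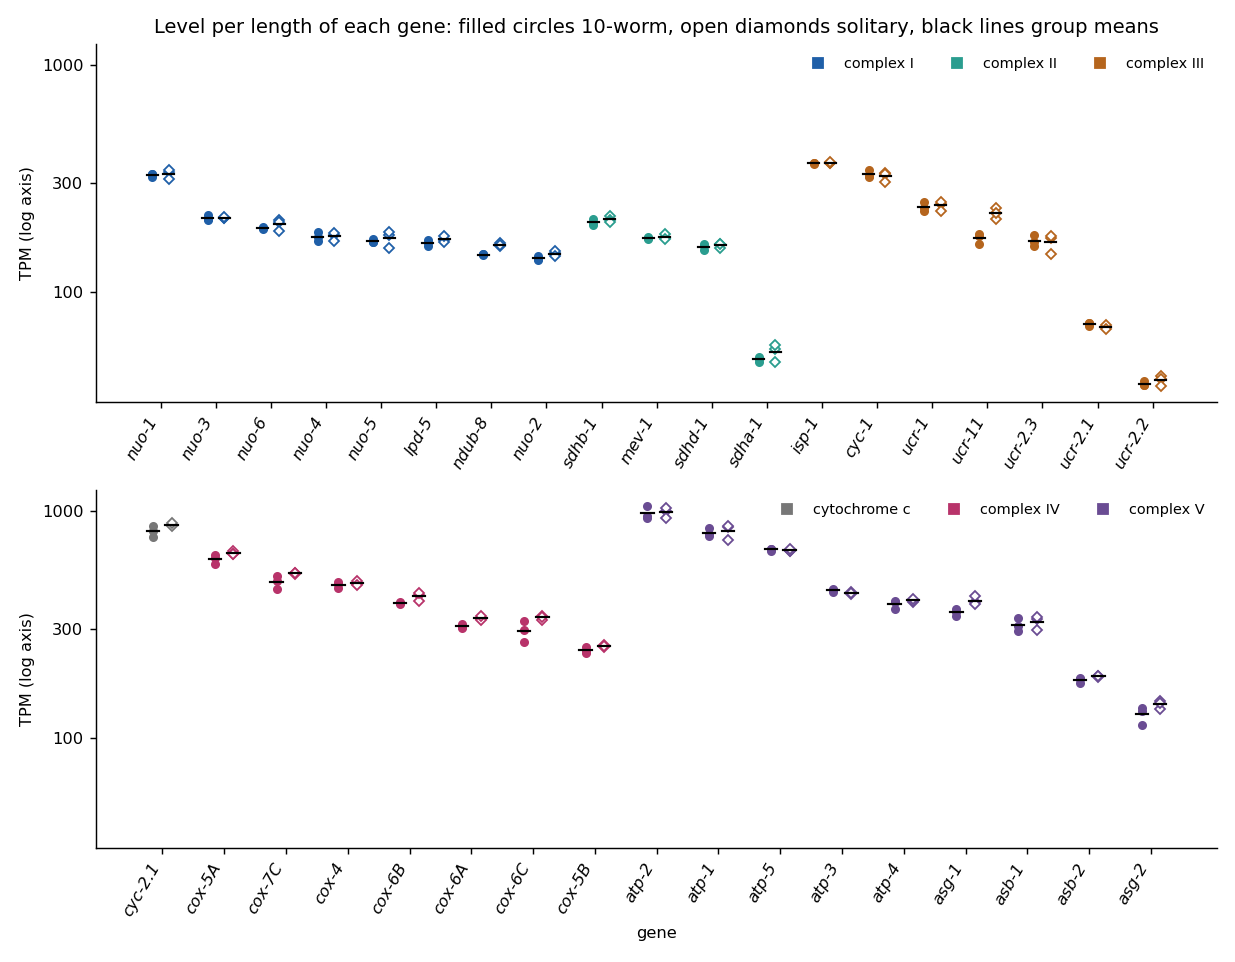
Level of each of the tested genes named here in TPM (log axis) in every library, by complex and in falling order within each; filled circles are the 3 10-worm libraries, open diamonds the 3 solitary libraries and black lines the group means. The genes run between 40.0 TPM (ucr-2.2) and 979 TPM (atp-2), and for most genes the distance between the groups is small against that between genes.

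Paralogs of one subunit were unequal. The level of asb-1 was 1.74 times that of asb-2, both of which encode the b subunit of the ATP synthase. For the g subunit, asg-1 stood 2.84 times above asg-2. Of the core proteins 2 of complex III, ucr-2.3 stood 2.34 times above ucr-2.1 and 4.15 times above ucr-2.2. The 2 cytochrome c genes differed most. While cyc-2.1 had 841 TPM, cyc-2.2 had 0 counts in each of the 3 10-worm libraries, and 2, 1 and 1 counts in the solitary libraries. A count of 0 over the 10-worm group allows a level of up to 0.0168 CPM (counts scaled to library size; 3 counts over the summed libraries, counting error only), and the 4 counts of the solitary group correspond to 0.0228 CPM. No difference between the groups was detectable for cyc-2.2 at this depth. Outside the list, the sdha-1 paralog sdha-2 had 135 TPM against 52.3 TPM for sdha-1. By the study's methods each read counted had a single place in the genome, so reads that fit both genes of a pair were left out, and the levels within such a pair are uncertain to that extent.

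Between the growth conditions, all 37 tested respiratory chain genes had a negative log2 fold change, that is, a lower level in the 10-worm group than in the solitary group after scaling of the libraries by TMM (trimmed mean of M-values). The log2 fold changes lay between -0.44 (ucr-11) and -0.04 (atp-3), with a median of -0.13. Over all tested genes, 49.4% had a negative log2 fold change and the median was 0.00. With an adjusted p under 0.05 in edgeR's quasi-likelihood test, 3 of the 37 genes fell, namely ucr-11 of complex III, asg-1 of complex V and ndub-8 of complex I, and 0 rose. Of all tested genes, 0.233% were called lower and 0.239% in either direction. With the further demand of an absolute log2 fold change above 1, which the study used, 0 of the 37 genes remained, beside 0.0109% of all genes. At an unadjusted p under 0.05, 22 of the 37 genes were lower and 0 higher, beside 6.71% of all tested genes lower. Of the 10474 tested genes that averaged 100 or more counts, 1080 were lower at that p. In 27 of the 37 genes every 10-worm library lay below every solitary library. This held for 9.83% of all tested genes, and for 1405 of the 10474 that averaged 100 or more counts. The same shares stand beside the counts by complex and by list below. The p-values measure only the spread between these libraries, which the labels call biological repeats without naming separate cultures.

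The count of calls depended on the libraries and on the scale. Without the third solitary library 8 genes were called (among them ndub-8, nuo-5, nuo-6, sdha-1, ucr-11, cox-6A and asg-1), beside 1.5% of all genes called lower, and without any other single library 0 were called. DESeq2 called 9 genes lower, beside 3.75% of the genes to which it gave an adjusted p. On the TPM scale, which sets the summed counts per length equal in every library and was tried after seeing the data, 32 of the 37 genes were lower and cyc-1, ucr-2.1, ucr-2.3, atp-3 and atp-5 were higher. The median difference was then -0.05 on the log2 scale, beside 0.08 over 10471 genes that averaged 100 or more counts and had no 0, of which 26.5% were lower.

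**Figure D2:**
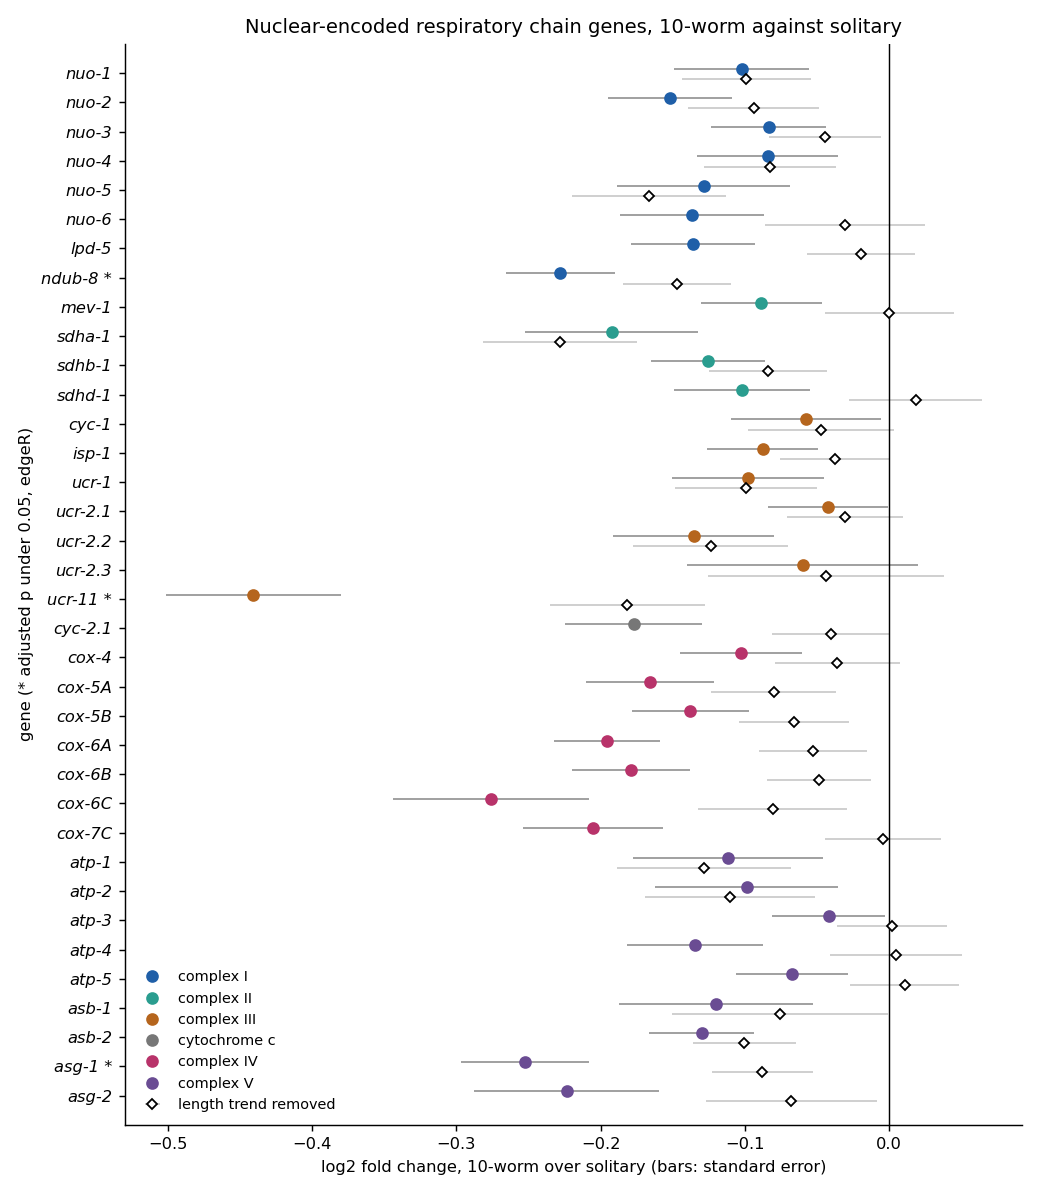
Log2 fold change of each of the tested genes named here, 10-worm over solitary, with its standard error (3 libraries per group); filled circles are the values as fitted, coloured by complex, open diamonds the values with the length trend removed, and an asterisk marks an adjusted p under 0.05. All filled circles shown lie below 0, and all diamonds but those of mev-1, sdhd-1, atp-3, atp-4 and atp-5 do.

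Complex I is where electrons from NADH enter the chain, and its 9 genes had log2 fold changes from -0.23 to -0.08 with a median of -0.14. One of them, ndub-8, passed the test, and in 6 of the 9 the groups did not overlap. ndub-8 (WBGene00013094, chromosome II, 13872869 to 13875312, WBcel235) encodes an accessory subunit, the homologue of human NDUFB8. Its level was 79.2, 79.8 and 77.4 CPM in the 10-worm libraries and 94.0, 91.2 and 91.8 CPM in the solitary libraries. Both groups were tight and did not overlap. The means were 78.8 ± 1.28 CPM in the 10-worm group and 92.3 ± 1.47 CPM in the solitary group (SD, n = 3 each), so ndub-8 fell by 14.6%, at a log2 fold change of -0.23 (standard error, SE, 0.04, and adjusted p = 0.0446 in edgeR).

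The subunit at which NADH is oxidised, nuo-1, was the most abundant gene of complex I. It had 375, 362 and 361 CPM in the 10-worm group and 402, 408 and 370 CPM in the solitary group. The third solitary library lay below the highest 10-worm library, and the log2 fold change was -0.10 (SE 0.05, adjusted p = 0.421 in edgeR). nuo-5, the homologue of NDUFS1 and the longest gene of the list with 2444 exonic bases, had the third solitary library inside the 10-worm range. Its level was 295, 285 and 276 CPM in the 10-worm group and 323, 332 and 281 CPM in the solitary group, with a log2 fold change of -0.13. The core subunit gene nuo-2 had a log2 fold change of -0.15, and lpd-5, the homologue of NDUFS4, and nuo-6, the homologue of NDUFB4 whose mutants live long, both had -0.14. nuo-3 and nuo-4, which encode accessory subunits, had the smallest values of the complex, both -0.08.

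Complex II, succinate dehydrogenase, also works in the citric acid cycle. Its 4 genes had log2 fold changes from -0.19 to -0.09, and in all 4 the 10-worm libraries lay below the solitary libraries, but 0 had an adjusted p under 0.05 in edgeR (2 had an unadjusted p under 0.05, and DESeq2 called 0). The flavoprotein gene sdha-1 had 85.5, 83.3 and 84.5 CPM in the 10-worm group and 99.5, 103.6 and 86.5 CPM in the solitary group. Its 10-worm libraries were almost equal while the solitary libraries were spread, with the third close to the 10-worm level. The log2 fold change of sdha-1 was -0.19 (SE 0.06, adjusted p = 0.235 in edgeR), and -0.27 (adjusted p = 0.00739) without that library. The iron-sulfur gene sdhb-1 had 147, 149 and 150 CPM in the 10-worm group and 168, 162 and 157 CPM in the solitary group, a log2 fold change of -0.13 (adjusted p = 0.229 in edgeR). The membrane anchor genes mev-1, known for its oxygen-sensitive mutant, and sdhd-1 had log2 fold changes of -0.09 and -0.10.

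Complex III showed both the largest and nearly the smallest difference of the list. Its 7 genes had log2 fold changes from -0.44 to -0.04, and ucr-11 passed the test. ucr-11 (WBGene00019007, chromosome I, 6552834 to 6553379) is the shortest gene of the list, with 281 exonic bases, and is annotated as a small subunit of the complex. It had 32.3, 35.5 and 34.0 CPM in the 10-worm group and 48.7, 43.8 and 45.7 CPM in the solitary group, the widest gap between the groups, relative to its level, among the 37 genes. The means were 33.9 ± 1.59 CPM in the 10-worm group and 46.1 ± 2.49 CPM in the solitary group (SD, n = 3 each). ucr-11 fell by 26.3%, with a log2 fold change of -0.44 (SE 0.06, adjusted p = 0.0268 in edgeR), and its unadjusted p ranked 8 among all tested genes.

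The other genes of complex III had adjusted p-values of 0.364 or more. isp-1, the Rieske iron-sulfur protein whose mutant is long-lived, was the most abundant of them per length. It had 258, 256 and 246 CPM in the 10-worm group and 269, 270 and 270 CPM in the solitary group, with a log2 fold change of -0.09. These groups did not overlap, and the solitary libraries were nearly equal. Of the core proteins 2, ucr-2.2 had 39.4, 39.4 and 39.6 CPM in the 10-worm group and 45.4, 44.0 and 40.7 CPM in the solitary group, with a log2 fold change of -0.14. ucr-2.1 had 71.3, 73.4 and 71.5 CPM in the 10-worm group and 74.5, 76.0 and 72.0 CPM in the solitary group, with a log2 fold change of -0.04. ucr-2.3 had 170, 152 and 153 CPM in the 10-worm group and 172, 177 and 145 CPM in the solitary group, where the third solitary library was the lowest of all 6. For ucr-2.1 and ucr-2.3 the groups overlapped, and the log2 fold change of ucr-2.3, -0.06, was smaller than its standard error of 0.08. It rested on single libraries, at -0.14 without the third solitary library, -0.12 without the first 10-worm library and -0.0093 without the second solitary one, and differences between these 3 paralogs were not tested. cyc-1, which encodes cytochrome c1, and ucr-1, a core protein 1, had log2 fold changes of -0.06 and -0.10. The exons of cyc-1 share 61 bases with a gene on the other strand, the largest overlap among the 38 genes, and strand use in counting is not given in the sources used here.

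For cytochrome c the expressed gene cyc-2.1 had 298, 333 and 306 CPM in the 10-worm group and 354, 348 and 357 CPM in the solitary group. The second 10-worm library was nearest to the solitary level, without overlap. The log2 fold change of cyc-2.1 was -0.18 (SE 0.05, adjusted p = 0.165 in edgeR, 0.0370 in DESeq2).

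Complex IV, cytochrome c oxidase, had the lowest median of the complexes, -0.18, with a range from -0.28 to -0.10. All 7 genes had groups that did not overlap and an unadjusted p under 0.05, 0 had an adjusted p under 0.05 in edgeR, and DESeq2 called 5 (cox-5A, cox-6A, cox-6B, cox-6C and cox-7C). These 7 genes are short, with 389 to 856 exonic bases. cox-6A came nearest to the threshold, with 117, 115.4 and 116 CPM in the 10-worm group, 133, 131 and 136 CPM in the solitary group, and a log2 fold change of -0.20 (SE 0.04, adjusted p = 0.0717 in edgeR). cox-6C had the lowest log2 fold change of the complex, -0.28 (adjusted p = 0.163). Its 10-worm libraries were uneven, with 74.8, 92.4 and 81.4 CPM, against 102, 98.5 and 100.3 CPM in the solitary group. The most abundant gene per length was cox-5A, with 306, 335 and 315 CPM in the 10-worm group and 365, 355 and 352 CPM in the solitary group, and a log2 fold change of -0.17 (adjusted p = 0.166). The least abundant was cox-5B, with 138, 147 and 136 CPM in the 10-worm group and 156, 154 and 154 CPM in the solitary group, and a log2 fold change of -0.14 (adjusted p = 0.204). In cox-4, cox-5A, cox-5B, cox-6B, cox-6C and cox-7C the second 10-worm library was the highest of its group.

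Complex V held 9 genes with log2 fold changes from -0.25 to -0.04 and a median of -0.12, and the groups did not overlap in 6 of them. They overlapped in asb-1 and in the catalytic head genes atp-1 and atp-2. asg-1 (WBGene00000209, chromosome I, 8692946 to 8693468), one of the genes of the g subunit, was the third called gene. It had 116, 124 and 116 CPM in the 10-worm group and 140, 137 and 147 CPM in the solitary group. The means were 119 ± 4.80 CPM in the 10-worm group and 141 ± 5.12 CPM in the solitary group (SD, n = 3 each). asg-1 fell by 16.1%, with a log2 fold change of -0.25 (SE 0.04, adjusted p = 0.0493 in edgeR). Its exons share 18 bases (3.78% of its length) with a gene on the other strand. Its paralog asg-2 had 40.0, 46.1 and 46.2 CPM in the 10-worm group and 53.6, 49.2 and 51.7 CPM in the solitary group, a log2 fold change of -0.22 that did not pass the test (adjusted p = 0.194).

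The b subunit genes had log2 fold changes of -0.12 for asb-1, the isoform known from the germline, and -0.13 for asb-2, a difference that was not tested. Without each library in turn asb-1 ran from -0.18 (without the first 10-worm or the third solitary library) to -0.08, and asb-2 from -0.14 to -0.12. asb-1 had 244, 214 and 219 CPM in the 10-worm group and 254, 259 and 224 CPM in the solitary group, so the first 10-worm and the third solitary library crossed. asb-2 had 146, 152 and 148 CPM in the 10-worm group and 162, 164 and 163 CPM in the solitary group, with both groups tight (adjusted p = 0.182, against 0.533 for asb-1). atp-2 had 1428, 1263 and 1249 CPM in the 10-worm group and 1428, 1473 and 1318 CPM in the solitary group, a log2 fold change of -0.10 (SE 0.06). The first 10-worm library equalled the first solitary one, and without that 10-worm library the value was -0.17, while without the third 10-worm library it was -0.06. The OSCP subunit gene atp-3, which links the head to the stalk, had the smallest difference of all, with 321, 328.8 and 316 CPM in the 10-worm group and 337, 329.1 and 329.1 CPM in the solitary group. Its log2 fold change was -0.04 (SE 0.04, adjusted p = 0.737 in edgeR). atp-1, atp-4 and atp-5, the genes of the alpha subunit, coupling factor 6 and subunit d, had log2 fold changes of -0.11, -0.13 and -0.07.

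**Figure D3:**
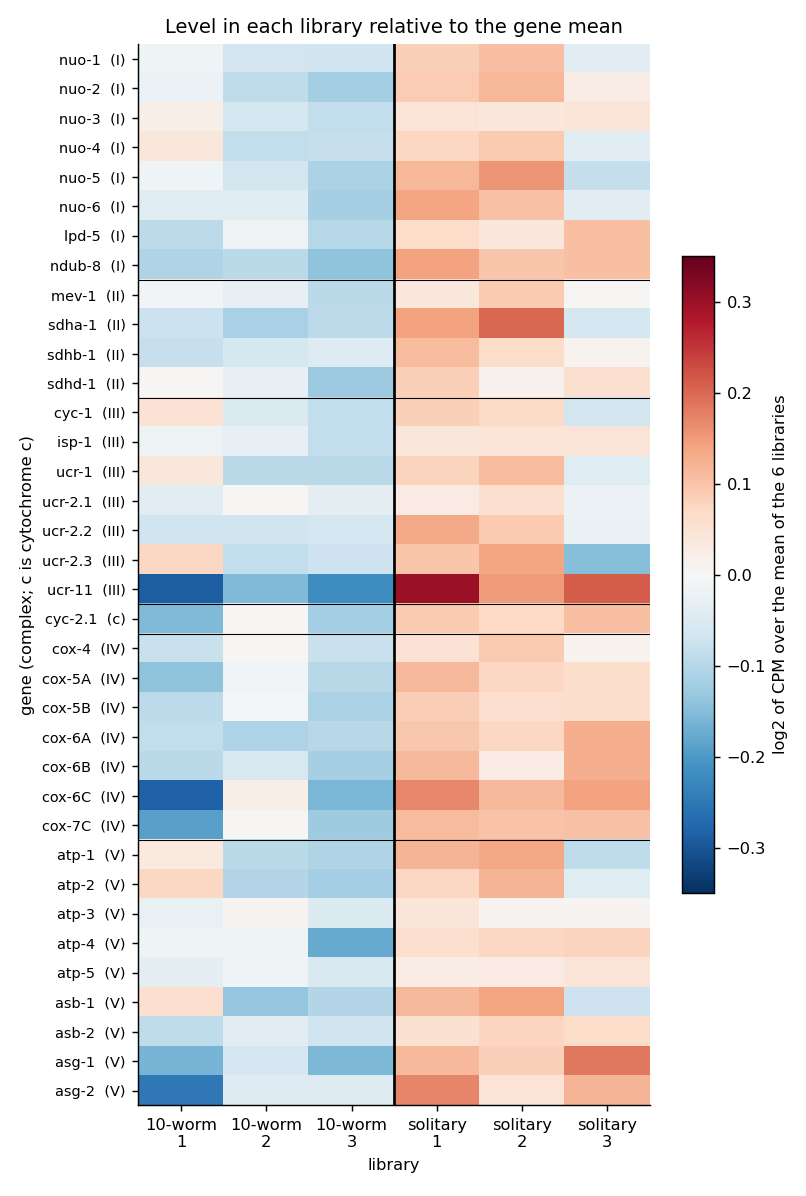
Level of each of the tested genes named here in each library as the log2 of its CPM over the gene's geometric mean of the 6 libraries, blue for lower and red for higher, with the 10-worm libraries on the left. In solitary libraries 1 and 2 all genes shown lie above 0, while solitary library 3 is mixed, with short genes such as asg-1 above 0 and long genes such as nuo-5 and ucr-2.3 below it.

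The libraries of one group were not alike for these genes. The median deviation of the 37 genes from their 6-library mean was -0.04, -0.06 and -0.10 on the log2 scale in the 10-worm libraries, and 0.09, 0.09 and 0.02 in the solitary libraries. For the 18 longer genes (986 to 2444 exonic bases) the third solitary library, at -0.04, lay between 10-worm libraries at -0.01, -0.07 and -0.08, while for the 19 shorter genes (281 to 919 bases) it was at 0.10, the highest of the 6. Across the 37 genes, the deviation in the third solitary library fell as exonic length grew (Spearman rho -0.85), with rho values of -0.14 and 0.34 in the first and the second solitary library. In the 10-worm libraries rho was 0.64, -0.39 and 0.50, so libraries of both groups differed in sign. These are descriptions over genes of shared libraries. The third solitary library is also the one whose omission raised the number of called genes.

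The log2 fold changes of the respiratory chain genes followed their length, with a Spearman rho of 0.564 over 37 genes and of 0.527 without ucr-11. Over 10474 tested genes that averaged 100 or more counts the rho was 0.484. All 3 called genes were among the 19 shorter ones, which had a median log2 fold change of -0.17 and no overlap between the groups in 19 of 19. The 18 longer ones had a median of -0.10, 0 called genes (6 at an unadjusted p under 0.05, 0 by DESeq2) and no overlap in 8. Every 10-worm library lay below every solitary library in 9.83% of all tested genes, and this share was not computed by length. Among all genes that averaged 100 or more counts, 84.1% of those of 56 to 634 bases had a negative log2 fold change. For those of 634 to 870 bases it was 79.2%. The complexes differ in length, from a median of 572 exonic bases in complex IV to 1432 in complex III, so differences between the medians of the complexes cannot be told apart from length here.

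Against genes of their own length, the respiratory chain genes still stood low. When all genes that averaged 100 or more counts were put into 10 equal groups by length, 32 of the 37 lay below the median of their length group. The distance was small among the shortest, with a median of -0.20 for 11 respiratory chain genes of 56 to 634 bases beside -0.16 for all 1048 genes of that group. It was wider in some of the groups of longer genes. The 4 genes of 1484 to 1724 bases had a median of -0.10 beside 0.00 for all 1047, and the 2 of 2034 to 2523 bases, nuo-5 and sdha-1, had -0.16 beside 0.03.

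**Figure D4:**
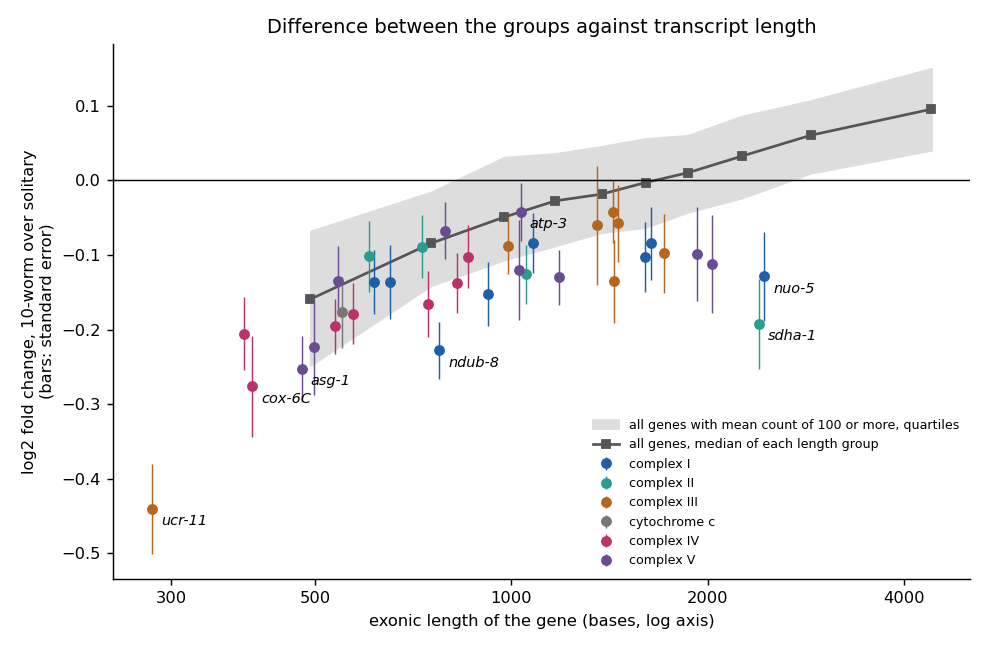
Log2 fold change, 10-worm over solitary, against exonic length (log axis) for the respiratory chain genes named here, coloured by complex and with standard errors; the grey line and band are the median and quartiles of all tested genes that averaged 100 or more counts in 10 equal length groups. The median of all genes runs between -0.16 and 0.10, and most respiratory chain genes lie below it, nuo-5 and sdha-1 among the long ones.

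With a smooth trend on length removed from every library, the respiratory chain genes kept a median log2 fold change of -0.07, and 32 of 37 (86.5%) were below 0, beside 45.2% of all tested genes. By complex the medians became -0.09 for I, -0.04 for II, -0.05 for III, -0.05 for IV and -0.08 for V. The 3 called genes moved to -0.15 (ndub-8, adjusted p = 0.593), -0.18 (ucr-11, adjusted p = 0.639) and -0.09 (asg-1, adjusted p = 0.703), so 0 genes were called by edgeR after the removal, here and among all genes. At an unadjusted p under 0.05, 9 of the 37 genes were lower (among them nuo-1, nuo-5, ndub-8, sdha-1, ucr-2.2, ucr-11, asb-2 and asg-1) and 0 higher, beside 2.91% of all tested genes lower. sdha-1 had the lowest value then, -0.23 (SE 0.05, adjusted p = 0.593), with ucr-11 at -0.18 and nuo-5 at -0.17. cox-7C, with 389 bases, went to 0.00, and mev-1, sdhd-1, atp-3, atp-4 and atp-5 were no longer below 0. The order by length turned round in the list, with a rho of -0.447, while over all genes it was near 0 at -0.02.

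The genes that work beside the list were read from the same fit. A list of other nuclear subunits had 38 names, of which 28 matched a counted gene. Most of the 28 belong to complex I, and no gene of complex III or IV was among them. They include genes for inhibitors of the ATP synthase, which are not subunits of it. All 28 had a negative log2 fold change, with a median of -0.14. Of these 28, 1 fell in the test, nduv-3 of complex I with a log2 fold change of -0.35 (adjusted p = 0.0446 in edgeR), and 0 rose. DESeq2 called 8 of them lower, beside 3.75% of the genes to which it gave an adjusted p. At an unadjusted p under 0.05 in edgeR 19 were lower, beside 6.71% of all tested genes. In 20 the groups did not overlap, beside 9.83% of all tested genes. These 28 genes had a median of 597 exonic bases. Of all genes of 56 to 634 bases that averaged 100 or more counts, 84.1% were lower. The lowest value was that of ndua-2, -0.35 (adjusted p = 0.0552), and the highest that of nduf-11, -0.01. The paralog sdha-2 had -0.06, beside -0.19 for sdha-1, a difference that was not tested. With the length trend removed 23 of the 28 were below 0, with a median of -0.03.

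The 12 subunits encoded by mitochondrial DNA had a median log2 fold change of -0.02, and 3 of the 12 were above 0. The groups did not overlap in 1 of them, ndfl-4, the ND4L subunit of complex I, which had the lowest value, -0.41 (adjusted p = 0.144) and is the shortest of the 12. The highest was nduo-4 at 0.14 (SE 0.15). In edgeR 0 of the 12 were called (1 lower at an unadjusted p under 0.05, and 1 lower by DESeq2). With the length trend removed 10 of the 12 lay above 0, with a median of 0.05, beside -0.07 for the nuclear genes of the list. The first 10-worm library was high in these transcripts, with a median deviation of 0.16 on the log2 scale, against -0.10 and -0.13 in the other 10-worm libraries and -0.03, 0.07 and 0.02 in the solitary libraries. This spread within a group was larger than the difference between the groups, and the capture of mitochondrial transcripts by oligo(dT) beads was not measured.

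Assembly factors, which build the complexes or their cofactors, had a median of -0.05, and 20 of 27 were below 0. Their values ran from -0.28 for the copper chaperone cox-17 to 0.12 for coq-1, an enzyme of ubiquinone synthesis. In the citric acid cycle and pyruvate dehydrogenase 18 of 20 genes were below 0, with a median of -0.06 and a range from -0.43 for the isocitrate dehydrogenase subunit idhg-2 (adjusted p = 0.118) to 0.04 for ogdh-1. In edgeR 0 genes of either list were called. At an unadjusted p under 0.05 in edgeR, 5 assembly factors and 6 genes of the cycle were lower, beside 6.71% of all tested genes. Among the 10474 genes that averaged 100 or more counts, 1080 were lower at that p. DESeq2 called 0 and 1 lower, beside 3.75% of the genes to which it gave an adjusted p. Every 10-worm library lay below every solitary library in 7 assembly factors and 3 genes of the cycle, beside 9.83% of all tested genes. This held for 1405 of the 10474 genes that averaged 100 or more counts. With the length trend removed the medians were 0.00 for the assembly factors and -0.08 for the cycle, where all 20 genes were below 0.

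**Figure D5:**
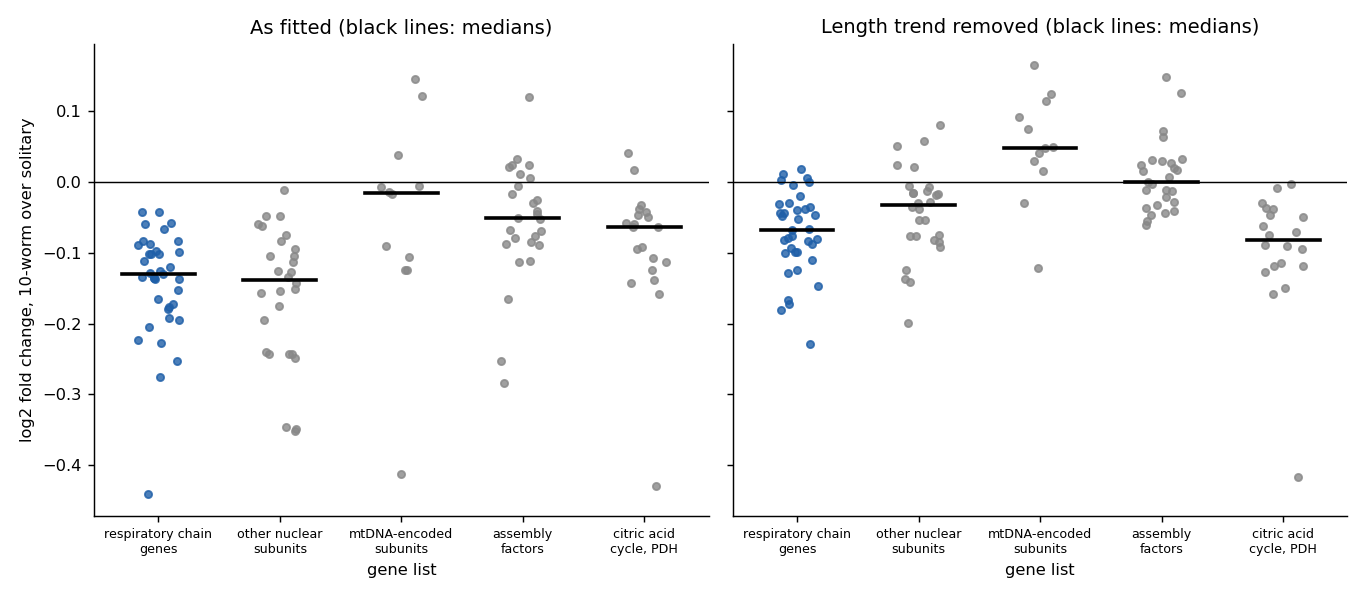
Log2 fold change, 10-worm over solitary, of each gene in 5 lists, as fitted on the left and with the length trend removed on the right; points are genes, black lines the medians, and PDH is pyruvate dehydrogenase. The respiratory chain genes have a median of -0.13 as fitted and -0.07 after the removal, against -0.02 and 0.05 for the subunits encoded by mitochondrial DNA.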

How the data were processed

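The authors had trimmed the reads with Trimmomatic 0.36, aligned them to WBcel235 with STAR 2.5.2b and counted them per gene with featureCounts (Subread 1.5.2), and deposited raw counts. Strand use in counting is not given in the sources used here. A second, normalized table was not used. Genes with 10 or more counts summed over the 6 libraries were tested with edgeR 4.0.16 (R 4.3.3, robust quasi-likelihood fit, TMM, Benjamini-Hochberg over all tested genes), with DESeq2 1.42.0 as an alternative. CPM are scaled by TMM, and TPM were computed from counts and exonic lengths of the Ensembl annotation. The length trend was a lowess curve (span 0.3, fitted on genes averaging 100 or more counts) of each library's log2 ratio on log2 length, used as an offset. The members and the lists were chosen with earlier results of these data known, so nothing here is independent support for them. Per-library values were given for called genes, the 3 with the smallest p, the most and least abundant of each complex, paralogs and the gene with the most positive change, and for nuo-5 and cox-6A and cox-6C, picked after their values were seen. Of other lists, only called genes, extremes and paralogs of members were named. The tests were checked on simulated data. One gene of complex I was counted in all totals but is not reported by name here and is not drawn by name in the figures.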

Additional observations from a re-analysis of the deposited data

How the results depend on the processing

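All 37 tested genes kept a negative log2 fold change in every alternative except removal of the length trend, alone or with the replicate block, and the TPM scale, which was added after seeing the data; in each of these 32 of 37 were below 0. The median of the 37, -0.13 as reported, became -0.068 with the length trend removed, -0.069 with the replicate block and the length trend removed and -0.049 on the TPM scale, and without each library in turn it lay between -0.15 and -0.11. The 3 genes called became 9 with DESeq2, 13 with no count minimum, 1 with filterByExpr, 0 with total counts in place of TMM, 1 with the replicate block, 0 with the length trend removed, 0 with the replicate block and the length trend removed, 0 with an absolute log2 fold change above 1, and between 0 and 8 without each library in turn. In the same order the 44 of all genes became 435, 745, 17, 7, 24, 0, 0, 2 and between 0 and 391. Across all alternatives the adjusted p of ucr-11 ran between 1.73e-08 and 0.698, that of ndub-8 between 0.000415 and 0.593 and that of asg-1 between 1.47e-05 and 0.843. Above 0 with the length trend removed, without and with the replicate block, were mev-1 (0.00013 and 0.00082), sdhd-1 (0.018 and 0.017), atp-3 (0.0020 and 0.0020), atp-4 (0.0047 and 0.0033) and atp-5 (0.011 and 0.011). The cause of these differences was not tested. Deviations from the group mean had r = 0.208, -0.300 and -0.299 between libraries with the same number (10491 genes). With 3 libraries per group these r values depend on each other. They cannot decide whether libraries with the same number were prepared together. Of the 10-worm libraries, the first correlated best with its own number, the second with solitary library 3 (r = 0.315) and the third with solitary library 2 (r = 0.437). With 3 libraries per group, differences of the size seen here lie near the threshold, and depth is not the limit except for cyc-2.2.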
